A study of Mus musculus with 4 samples.

Results

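The strongest shared distal regions were stretches of open chromatin in mouse intestinal stem cells. They ranked near the top of the peak list in all 4 libraries, small and large intestine alike. Each lay away from the annotated ends of protein-coding genes, though 62.2% were inside a gene body. Peaks of the 4 lists that shared at least 1 bp were merged into 119965 regions. All 4 libraries had a peak in 57829 of these, and 56633 of the 57829 lay on chromosomes 1 to 19. Each peak was given the percentile of its −log10 q within its own list, and a region took its highest peak in each list. At percentile 90 or over in all 4 libraries stood 6666 regions. Of those, 5169 lay within 1 kb of an annotated end of a protein-coding gene, 78 lay more than 100 kb away, and the 1419 between 1 and 100 kb away are the regions described here. They made up 1.18% of the merged regions and 3.68% of the 38575 distal regions (1 to 100 kb from a gene end) called in all 4 libraries. They were chosen by the authors' −log10 q and by distance, so their strength and distance are given as a description.

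Chromatin that is open to the transposase used in ATAC-seq is often bound by transcription factors. In mammals such sites are mostly promoters, where transcription starts, and enhancers, which can act on a gene from many kilobases away. Lgr5, a receptor for R-spondins that strengthens Wnt signalling, marks the stem cells at the base of intestinal crypts, and these cells renew the epithelium of both the small and the large intestine.

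The small-intestinal stem cells (SISC) carried the sort marks Lgr5-EGFP+ and CD24- and came from tissue taken 2 to 3 cm from the pylorus and from the cecum. The large-intestinal stem cells (LISC) were Lgr5-EGFP+ cells taken between cecum and rectum, for which the labels name no gate on CD24. All mice carried the Lgr5-EGFP-IRES-creERT2 allele, were 6 to 12 weeks old and untreated, and 50000 cells were lysed per library, with 2 libraries in each group. The allele places EGFP under the Lgr5 locus, so both groups were sorted for cells in which the reporter was active. The labels do not say whether the libraries came from separate animals, so a spread between them may be technical. The lists held 83443 and 93220 peaks in SISC replicates 1 and 2 and 91313 and 88739 in LISC replicates 1 and 2; depth in reads is unknown, and the absence of a call does not show closed chromatin. A gene end of each of the 6 epithelial markers was called in every library, and of the 8 stem cell markers 8 and 7 in SISC and 6 and 7 in LISC (Olfm4 was not called in LISC, Axin2 not in SISC replicate 2 and LISC replicate 1). Markers of the specialised epithelial cells were called too, at 3 of 4 goblet and 3 of 4 enteroendocrine genes in each library, 3 to 4 of 4 tuft genes and 1 to 2 of 3 Paneth genes. Of 6 immune markers 2 were called in each SISC library (Cd79a and Itgam) and 1 in each LISC library (Cd79a), while Ptprc, Cd3e and Csf1r were called in none. Of 6 stromal and endothelial markers 3 and 3 were called in SISC and 2 and 1 in LISC, Col1a1 in all 4 libraries and Pecam1 and Cdh5 in none. All 3 muscle genes were called in each library and 2 to 3 of 3 neuron genes. The share of all genes with a called gene end was not worked out here. These counts are therefore not read as a measure of cell type or purity. The part of other cells in the regions was not tested.

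Although chosen as distal, many of these regions held a transcript start that lies away from the ends of the annotated gene, or the start of a long noncoding RNA (lncRNA). The RefSeq table used here lists 31396 starts on chromosomes 1 to 19, and 1376 of the strongest shared distal regions lay on chromosomes with listed starts. Of these, 461 (33.5%, 95% exact binomial interval 31.0 to 36.1 over regions) held a listed start. Of the weaker distal regions, those called in all 4 libraries but under percentile 90 in at least 1, 1545 of 35918 (4.30%, 4.09 to 4.52) held one; over all regions called in all 4 libraries the share was 19.7%. Strong regions at gene ends held one in 4233 of 5029 cases (84.2%). The intervals are over regions, which are not independent of each other, and hold for these 4 libraries alone.

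The sequences upstream of 4 of these starts are shown because they carry the motifs whose share stood furthest above that of all listed starts. Each line gives the 250 bases 5′ of a start, on the strand of the transcript, from RefSeq's GRCm38.p6 table (the coordinates of mm10), with the matches on either strand in capitals. The first, chr7:83892016-83892265 on the plus strand, has overlapping KLF and Sp motifs. The next, chr7:73558396-73558645 on the minus strand, holds an NRF1 motif. Then follow chr3:40894105-40894354, minus strand, with a CTCF motif, and chr1:165236961-165237210, minus strand, with a CRE motif on both strands.
Mesd: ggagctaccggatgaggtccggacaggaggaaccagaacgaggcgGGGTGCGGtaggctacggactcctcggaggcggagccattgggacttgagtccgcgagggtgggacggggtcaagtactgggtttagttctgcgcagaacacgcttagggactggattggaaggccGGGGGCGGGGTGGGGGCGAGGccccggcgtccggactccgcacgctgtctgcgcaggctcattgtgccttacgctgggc
Chaserr: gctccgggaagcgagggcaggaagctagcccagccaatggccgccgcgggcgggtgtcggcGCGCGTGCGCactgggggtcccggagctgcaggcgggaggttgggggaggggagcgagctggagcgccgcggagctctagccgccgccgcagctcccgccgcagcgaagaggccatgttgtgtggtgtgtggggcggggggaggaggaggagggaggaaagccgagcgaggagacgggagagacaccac
6430590A07Rik: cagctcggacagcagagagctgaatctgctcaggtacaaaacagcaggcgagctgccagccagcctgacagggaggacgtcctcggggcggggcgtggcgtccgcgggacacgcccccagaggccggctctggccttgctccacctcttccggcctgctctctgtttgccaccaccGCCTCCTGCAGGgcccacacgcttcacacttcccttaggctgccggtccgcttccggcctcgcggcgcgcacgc
Tiprl: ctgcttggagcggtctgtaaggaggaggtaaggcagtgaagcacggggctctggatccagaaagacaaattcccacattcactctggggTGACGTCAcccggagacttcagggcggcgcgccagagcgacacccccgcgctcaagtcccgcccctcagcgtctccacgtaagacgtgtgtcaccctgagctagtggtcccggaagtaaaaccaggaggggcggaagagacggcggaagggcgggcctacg

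Mesd encodes a chaperone of the Wnt co-receptors Lrp5 and Lrp6. Its listed start lay in the region chr7:83891473-83892763, within the annotated Mesd gene and 7.13 kb from the nearest gene end, that of Tlnrd1. This was the highest ranking of all 1419 regions by the lowest of its 4 percentiles, with a −log10 q of 875 and 582 in SISC replicates 1 and 2 and 857 and 469 in LISC replicates 1 and 2. From the start its summits lay at −315 and −316 bp in SISC and −315 and −280 bp in LISC, outside the 250 bases shown. Chaserr is a lncRNA next to the chromatin remodeller gene Chd2 and is known in mice to restrain its expression. The region over its start (chr7:73557726-73559310) had a −log10 q of 647 and 466 in SISC and 675 and 382 in LISC. From that start its summits lay at −273 and −211 bp in SISC and −245 bp in both LISC libraries. The first of these lies outside the bases shown. The region at the lncRNA 6430590A07Rik (chr3:40893659-40894892) had 714 and 456 in SISC and 697 and 332 in LISC, and its summit lay 40 bp upstream of the start in all 4 libraries. The region at Tiprl (chr1:165236244-165237684), which encodes a regulator of phosphatases of the PP2A type, had 581 and 434 in SISC and 555 and 297 in LISC. In each of the 4 regions LISC replicate 2 had the lowest −log10 q; that library's value at percentile 90 was also the lowest, at 140, against 247 and 200.8 in the SISC libraries and 237 in LISC replicate 1. The −log10 q values are the authors' and depend on the library, so libraries are compared below by percentile.

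The starts in these regions resembled those at gene ends in base composition. In the 250 bases upstream of the start nearest the mean summit, median GC content was 60.8% in the 461 strongest shared distal regions, 62.0% in strong regions at gene ends, 54.0% in weaker distal regions and 52.4% over all listed starts. The ratio of observed to expected CpG had medians of 0.75, 0.80, 0.40 and 0.38 in the same order, and was at least 0.6, a usual bound for a CpG island, in 71.4%, 84.0%, 31.1% and 34.5% of windows. The 10 six-letter words with the highest ratio of their share in these windows to their share over all listed starts, among words in at least 5% of them, all held a CG; ACGTCG was in 7.38% and 2.31%. In GC content and in CpG ratio the strongest shared distal starts thus lay nearer to the gene-end promoters than to the weaker distal ones.

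Of 21 motifs searched on both strands, 5 stood furthest above their share over all listed starts. CCNCNCCC (KLF and Sp factors) was in 67.0% of the windows and 46.2% of all listed starts, the motif of NRF1 in 12.4% and 3.78%, that of CTCF in 13.9% and 7.24%, TGACGTC (CRE) in 4.99% and 2.82%, and the E-box CACGTG in 7.81% and 6.02%. In weaker distal windows the shares were 52.5% for KLF and Sp, 1.88% for NRF1 and 10.2% for CTCF. Shares of 4.34% and 3.59% for AAAGTCC (HNF4), 20.4% and 19.8% for GGAAGT (Ets) and 3.47% and 3.23% for CTTTGAT (TCF and LEF) lay close together. The 5 furthest below their share over all listed starts were the motif of GATA factors (AGATAA), at 3.90% of the windows and 9.94% of all listed starts, TTTATNG (CDX) at 5.42% and 9.75%, the E-box CAGCTG at 9.54% and 13.0%, the nuclear receptor half-site AGGTCA at 11.1% and 14.1%, and the Sox motif CATTGT at 8.03% and 10.3%. Strong regions at gene ends held these 5 in 4.02%, 5.24%, 9.87%, 8.98% and 4.70% of windows, in the same order. TGANTCA (AP-1) was in 4.99% of the windows and 6.77% of all listed starts, and TGTTTAC (FOXA) in 1.95% and 3.21%. The other motifs were those of HNF1 and NFI, AACNNGTT (GRHL), the TEAD motif GGAATG, the Runx motif TGTGGTT and TTCCNGGAA (STAT), each within 2 points of its share over all listed starts. The windows are rich in G and C, and the part of base composition in these shares was not tested. A match is a run of letters and no evidence of binding, and the sequence under regions with no listed start was not analysed here.

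The share with a listed start went up with strength. Among distal regions called in all 4 libraries it was 2.49% where the lowest percentile was under 50, 4.91% from 50 to 80 and 13.5% from 80 to 90. Among the strongest shared distal regions it was 27.2% from 90 to 95, 47.2% from 95 to 98, 47.9% from 98 to 99 and 58.8% (20 of 34 regions, 40.7 to 75.4) above 99. Strong regions were also wider, with a median of 1256 bp against 762 bp in weaker distal regions, and the part of width in these shares was not tested. By the authors' fold enrichment in place of −log10 q, regions chosen in the same way held a listed start in 16.9% of cases.

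**Figure D1:**
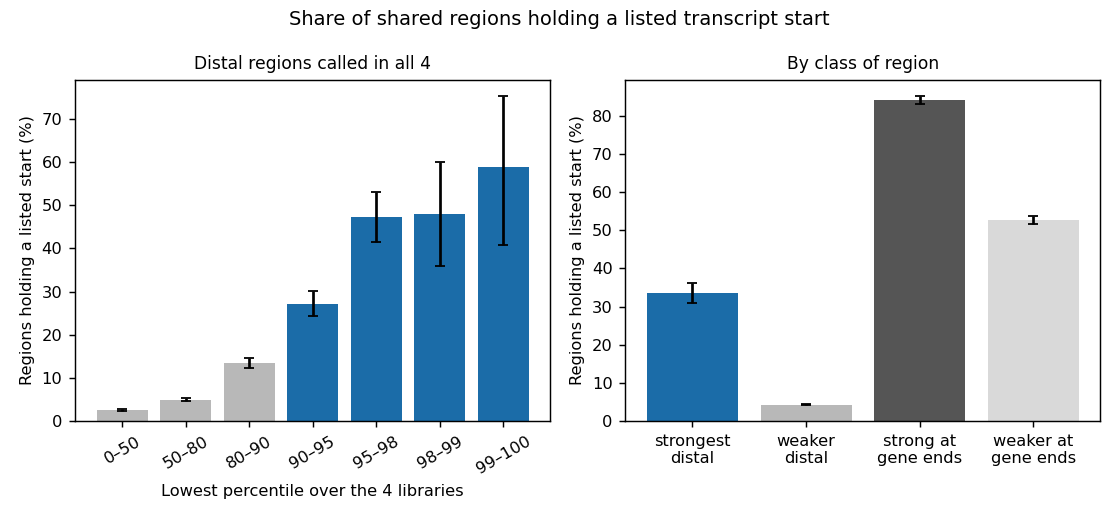
Share of regions called in all 4 libraries that held a RefSeq listed transcript start, in percent, for distal regions by the lowest of the 4 percentiles (left; blue marks the strongest shared distal regions) and by class of region (right). Bars are shares and whiskers exact 95% binomial intervals over regions; the left bars climb from 2.49% to 58.8%, and the strongest distal regions (33.5%) stand between weaker distal regions (4.30%) and strong regions at gene ends (84.2%).

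In 326 of the 461 regions the start belonged to the gene whose end was nearest, in 34 to another protein-coding gene, and in 101 to a lncRNA gene alone. Axin2, a Wnt target that feeds back on the pathway, was of the same-gene kind, with a region 2.19 kb from its gene end (chr11:108920023-108921497). The region stood at percentiles 93.7 and 92.1 in SISC and 93.4 and 92.7 in LISC. Prdm1, which encodes the repressor Blimp1, known in mice for its part in the maturation of the gut epithelium, had its region over an internal start 21.3 kb from the gene end, at 92.0 and 90.4 in SISC and 91.2 and 90.2 in LISC. Rbpj, the DNA-binding partner of Notch, had its region at 95.8 and 94.8 in SISC and 95.8 and 95.3 in LISC. That region held 2 listed starts, and its 4 summits had a spread of 966 bp. From 1 of these starts they lay at −960 and −962 bp in SISC and at 4 and −6 bp in LISC. In the region of Lamb3, also with 2 listed starts, such a shift lay within each tissue. Its summits were at −27 and −588 bp in SISC and at −26 and −588 bp in LISC. Among lncRNA starts were Junos, in a region 91.0 kb from Jun, Lockd, 1.34 kb from the cell cycle inhibitor gene Cdkn1b, and D130051D11Rik, 52.5 kb from Wnt7b. For all of these the 4 percentiles lay within 5 points of each other.

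Where a region held a start, the summits, which the rule did not use, sat just upstream of it. Starts were looked for only inside the region. Where it held several, the one nearest the mean summit was taken, which in part fixes how close they lie. The median summit lay 45 and 44 bp upstream in SISC replicates 1 and 2 and 45 and 43 bp upstream in LISC replicates 1 and 2. Within 200 bp of the start lay 82.9% and 81.3% of summits in SISC and 81.8% and 81.6% in LISC. In strong regions at gene ends the medians were 52 and 48 bp upstream in SISC and 50 and 49 bp in LISC. The position therefore differed by 2 bp among the 4 libraries and by a few bases from that at gene ends.

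**Figure D2:**
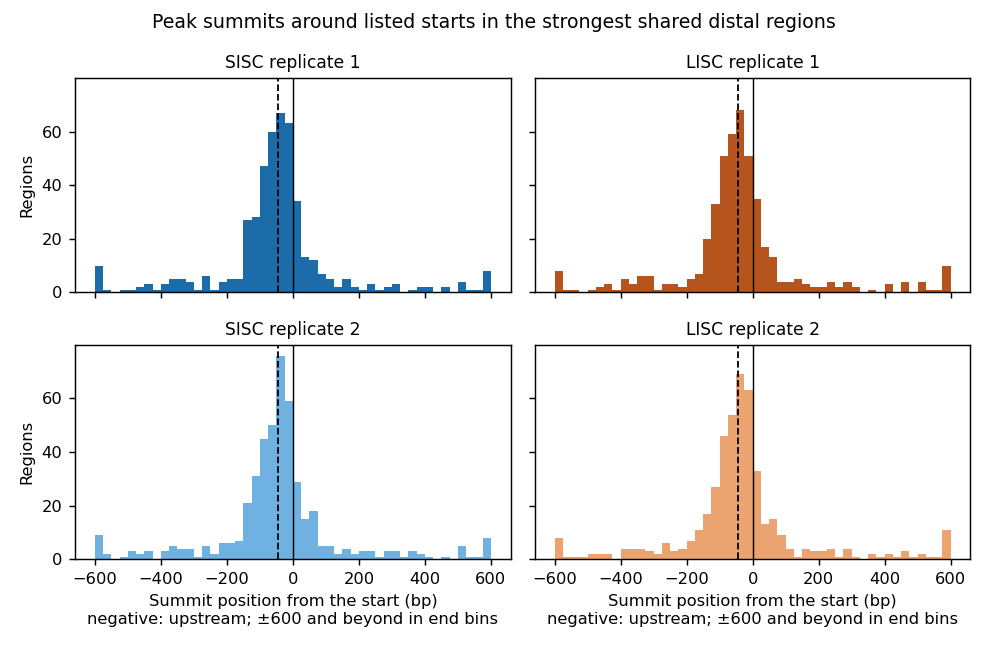
Position of the peak summit relative to the listed start, in bp (negative is upstream), for the 461 strongest shared distal regions that held one, with a panel for each SISC library (left) and each LISC library (right); the vertical axis counts regions and the dashed line is the median. All 4 panels peak just upstream of the start, with medians of −45, −44, −45 and −43 bp.

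Regions with a start and those without differed in position. The 461 with a start lay inside a protein-coding gene body in 82.4% of cases and at a median of 6.13 kb from the nearest gene end. The 915 with none, which are the ones the word distal describes by both measures, were in a gene body in 52.1% and at a median of 13.3 kb, against 55.3% and 14.2 kb for weaker distal regions with none. For all 1419 regions the share in a gene body was 62.2% (59.6 to 64.8), against 55.6% (55.1 to 56.1) of weaker distal regions. Their median distance was 10.8 kb (quartiles 4.45 and 25.5 kb), against 14.3 kb. Regions chosen by fold enrichment lay on the other side of these weaker distal values, at 51.4% in a gene body and a median of 14.7 kb. The weaker distal regions were still those by −log10 q, so the 2 sides rest on unlike measures, and the medians of distance were close. The regions were spread over all 19 chromosomes, at 3.03% to 4.24% of the distal regions called in all 4 libraries on each.

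Summits of the 4 libraries lay closer together than in weaker distal regions. The distance between the lowest and the highest of the 4 summits had a median of 20 bp (quartiles 4 and 50 bp, maximum 1308 bp). Its median was 47 bp in weaker distal regions and 18 bp in strong regions at gene ends. In 161 of the 1419 regions (11.3%) all 4 libraries had their summit on the same base, against 1.74% of weaker distal regions and 13.5% of strong regions at gene ends. Between the SISC libraries the median distance was 3 bp, between the LISC libraries 5 bp, and between a SISC and a LISC library 3 to 5 bp. By these medians summits lay as close between the tissues as within them. Summits over 100 bp apart were found in 3.17% of regions within SISC and in 3.17% within LISC. Between a SISC and a LISC library the share was 2.89% to 4.23%. In the Rbpj region the summits parted by tissue, but with 2 libraries per group this was not tested. The 915 regions with no listed start had a median spread of 19 bp and the 461 with one 24 bp. Read counts were not used here, and the part of depth in this difference was not tested.

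The regions at the top were close to each other in rank in all 4 libraries. After Tlnrd1 came chr15:85634310-85635372, 52.5 kb from Wnt7b, a Wnt ligand gene, with a −log10 q of 775 and 564 in SISC and 856 and 440 in LISC. Next was chr6:128200091-128201567, 25.6 kb from Tead4, a DNA-binding partner of the Hippo effectors Yap and Taz, with 751 and 537 in SISC and 865 and 447 in LISC; it held no listed start and its summits lay within 2 bp. Eif2ak3, which encodes the endoplasmic reticulum stress kinase Perk, had a region inside the gene and 27.3 kb from its end (chr6:70871775-70872938). Its summit was the same base in all 4 libraries, and its −log10 q was 876 and 520 in SISC and 782 and 391 in LISC. A region 18.4 kb from Mki67, the proliferation antigen gene (chr7:135734862-135736753), held no start and had 704 and 501 in SISC and 688 and 376 in LISC. Other regions among the top 12 were nearest to Nkain1, Prx, Tbc1d14, Rps6ka2, Cnnm2 and Nbeal1. Of the 12, 7 held a listed start, of the same gene for Tbc1d14, Rps6ka2, Cnnm2 and Nbeal1. In every library all 12 stood above percentile 99.5.

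**Figure D3:**
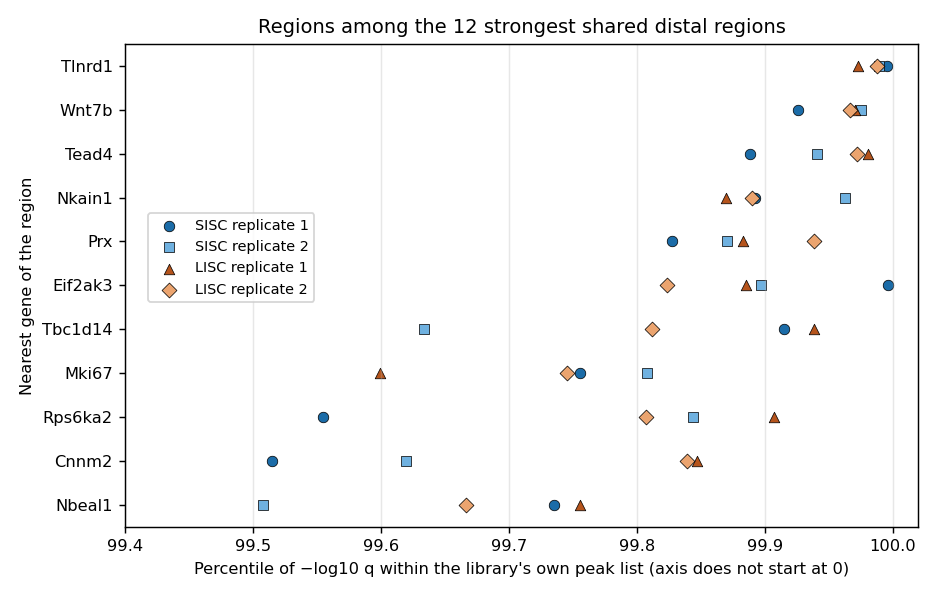
Percentile of −log10 q within the library's own peak list (horizontal axis, which does not start at 0) for the regions named in the text among the 12 strongest shared distal regions, labelled by nearest gene, with a point for each SISC and each LISC library. Every point lies above 99.5, and no library is the lowest for every region.

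At the other edge, the region nearest to Plxna2 stood at percentile 90 in SISC replicate 1, with a −log10 q of 247, and at 93.4 in SISC replicate 2, 90.9 in LISC replicate 1 and 93.3 in LISC replicate 2. Regions nearest to Prss36 and Irx5 were next inside. Just outside were regions nearest to Plcb3, Arhgap5 and Qrich2, with lowest percentiles of 89.996, 89.993 and 89.991. The edge therefore parted regions of nearly the same rank. The regions ran down to fold enrichments of 5.17 and 4.15 in the SISC libraries and 5.20 and 4.32 in the LISC libraries, and up to 27.5 and 23.6 in SISC and 27.7 and 20.7 in LISC. Percentile 90 by fold enrichment was also reached by 819 and 769 of the 1419 in SISC and 823 and 882 in LISC, so the 2 measures did not choose the same regions.

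Whether the strength of a region carried over to a library that had no part in choosing it was read by leaving out each library in turn. Of the distal regions at percentile 90 or over in the other 3 libraries, all were called in the fourth. Percentile 90 was reached there by 89.6% of 1584 for SISC replicate 1, 93.5% of 1529 for SISC replicate 2, 95.8% of 1483 for LISC replicate 1 and 88.0% of 1614 for LISC replicate 2. The lowest percentile any of them took in the library left out was 78.4, in LISC replicate 2. Of all distal regions called in the other 3 libraries, 5.11% and 6.99% reached percentile 90 in the SISC libraries and 6.53% and 6.37% in the LISC libraries. Among these, 92.5% and 97.7% were called at all in SISC replicates 1 and 2, and 95.3% and 93.6% in LISC replicates 1 and 2. Being called in the fourth library thus set the strong regions little apart.

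Small and large intestine ranked these regions much alike, as the rule requires of them. The mean percentile in SISC minus that in LISC had a median of −0.04 points and an SD of 1.53 over the 1419 regions, with a range of −5.55 to 5.42; the bound at 90 allows at most 10. In both SISC libraries above both LISC libraries stood 278 (19.6%), beside 29.3% of all regions called in all 4 libraries, and in both LISC above both SISC 289 (20.4%), beside 24.8%. The rule used the same values, so nothing is read from these shares. Differences for single regions carry no test, since with 2 libraries against 2 an exact two-sided permutation test cannot go below p = 0.333. By fold enrichment the counts were 421 and 307 of 1683.

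The regions that leaned furthest to the small intestine were nearest to Drc3, Lhfpl2, Atp4a, Cdk11b and Prcd. The one 13.0 kb from Drc3, a gene of the ciliary dynein regulatory complex, lay inside Tom1l2 (chr11:60339304-60339872). It stood at percentiles 96.5 and 98.2 in SISC and 93.0 and 90.9 in LISC. The one inside Atp4a, which encodes the gastric proton pump (chr7:30716690-30717991), stood at 98.5 and 97.0 in SISC and 94.5 and 91.2 in LISC. The Prcd region held the start of Snhg16, a host gene of small nucleolar RNAs, at 94.5 and 96.8 in SISC and 92.4 and 90.4 in LISC. In each of these 5 the SISC libraries lay above the LISC libraries, which the choice of the largest differences goes far to fix. By fold enrichment the mean percentiles of the Cdk11b region were 98.4 in SISC and 98.5 in LISC, a difference of −0.12 points, against 4.32 by −log10 q.

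The regions that leaned furthest to the large intestine were nearest to Cd9, Rnf32, Pcdh1, Acss2 and Ten1. The one 26.0 kb from Cd9, a tetraspanin gene (chr6:125433135-125434275), stood at 92.7 and 92.9 in SISC and 98.0 and 98.6 in LISC, with the summit on the same base in all 4 libraries. The one inside Pcdh1, a protocadherin gene, stood at 91.6 and 91.2 in SISC and 95.4 and 97.2 in LISC. Acss2, which makes acetyl-CoA from acetate, a fatty acid abundant in the colon, had a region inside the gene (chr2:155552877-155553949) at 92.8 and 92.2 in SISC and 96.8 and 97.7 in LISC. The LISC libraries were above both SISC libraries in each of the 5, again as chosen, though by fold enrichment the Acss2 difference was only −0.30 points. None of the 5 held a listed start where starts could be read.

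**Figure D4:**
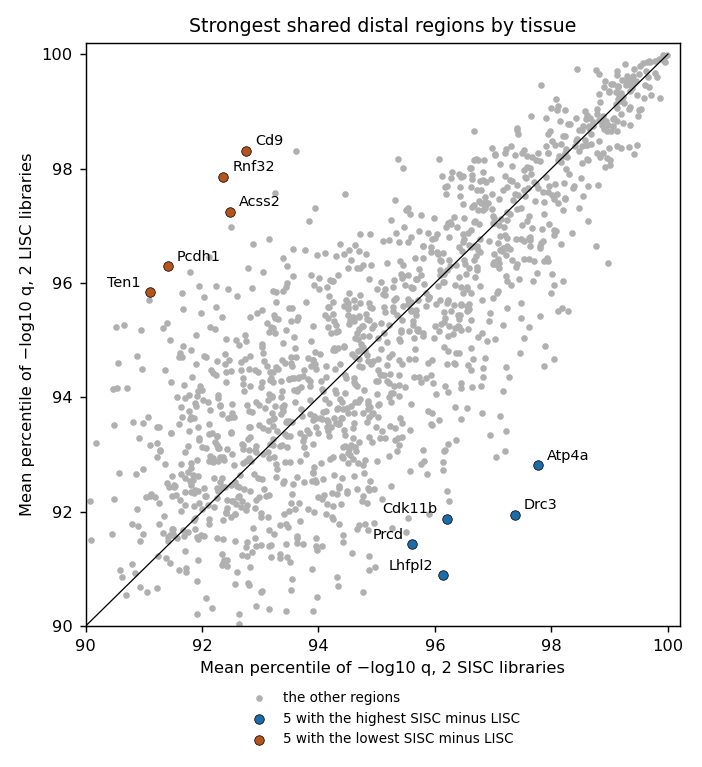
Mean percentile of −log10 q in the 2 SISC libraries (horizontal) against that in the 2 LISC libraries (vertical) for each of the 1419 strongest shared distal regions, named by nearest gene for the 5 highest and 5 lowest differences; the line marks equal values and both axes start at 90. The points follow the line, with an SD of 1.53 points for the difference, and the furthest are 5.42 (Drc3) and −5.55 (Cd9).

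By nearest gene end, 1287 of 20665 protein-coding genes on chromosomes 1 to 19 (6.23%) had at least 1 of the regions, 1170 of them 1, 105 of them 2 and 12 of them 3 or more. Chd2 led with 5, of which 1 was the Chaserr start described above, 1 lay within Chd2, and 3 formed the only run of 3 regions spaced by at most 12500 bp (chr7:73606608-73628601, 22.0 kb). The middle region of the run stood at 98.8 and 99.4 in SISC and 98.7 and 99.4 in LISC, and its summit was the same base in all 4 libraries. The outer ones were weaker, with lowest percentiles of 91.3 and 90.1. Rab11fip4, which encodes an effector of the recycling GTPase Rab11, had 4 regions. Among those with 3 were Olfr267, Fos, Ywhaz, Gpr146, Pik3c2b, Vwf, Pxn and Irak2. Nearest does not mean regulated: Olfr267 is an olfactory receptor gene, and its 3 regions lay 38.4 to 69.8 kb from it. Only 81 of the 1419 regions (5.71%) lay that close to another, in 40 runs.

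Among 14 gene lists, genes of the immediate early response had regions most often at percentile 90 by −log10 q. These genes, which encode the AP-1 factors Fos and Jun and others, are induced within minutes by growth factors and by stress. Of 19, 9 had at least 1 region, and 11 of their 93 distal regions called in all 4 libraries (11.8%) were among the strongest, beside 3.68% of all such distal regions. Fos had 3, at 8.21, 18.05 and 42.6 kb. The one at 18.05 kb (chr12:85454943-85455842) stood at percentiles 97.8 and 96.6 in SISC and 97.1 and 96.6 in LISC. The region 6.84 kb from Nr4a1, a nuclear receptor of the early response, stood at 98.8 and 99.2 in SISC and 97.8 and 98.5 in LISC, and that 25.0 kb from Fosl2 at 95.9 and 97.1 in SISC and 96.9 and 96.6 in LISC. Atf3, Jun, Fosb, Dusp1, Ier5 and Zfp36l1 had 1 each. Ranked by fold enrichment, 4 of the 19 genes had a region, a share below that of the Klf, Ets and Grhl factors (5 of 16), the EGF receptor pathway (5 of 19) and the junction list (6 of 27). With the minimum at percentile 80 it was 12 of the 19, below the 14 of 16 of the Klf, Ets and Grhl factors, and at percentile 95 it was 3.

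Genes of cell junctions, adhesion and keratins came next. Of 27, 10 had a region, and 11 of 155 distal regions (7.097%) were among the strongest. Regions nearest to Cldn3 and Cldn4, claudins of the tight junction, lay in 1 run that measured 8.998 kb from end to end. The Cldn3 region (chr5:134965949-134967982) stood at 97.9 and 96.6 in SISC and 97.3 and 97.2 in LISC, while the Cldn4 region stood at 91.0 and 92.9 in SISC and 95.9 and 96.0 in LISC. A region inside Dsp, which encodes the desmosomal protein desmoplakin, stood at 97.1 and 97.5 in SISC and 97.6 and 99.2 in LISC. The region nearest to Ezr, a membrane linker of the brush border, held the start of the lncRNA Gm2885 and stood at 97.7 and 98.1 in SISC and 98.4 and 99.4 in LISC. Tjp1, Ocln, Epcam, Cdh17 and Vil1 also had regions. By fold enrichment 6 of the 27 genes had a region, and at percentile 95, 3.

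Stem cell and Wnt target genes had regions at 5 of 25 genes, and 6 of their 211 distal regions (2.84%) were among the strongest, a share under that of all distal regions. Lgr5 itself had 1, inside the gene and 54.6 kb from its end (chr10:115504962-115506695), with a −log10 q of 260 and 254 in SISC and 300 and 202 in LISC. Its percentiles were 90.7 and 93.3 in SISC and 93.0 and 95.2 in LISC, which overlap. Rnf43, a ubiquitin ligase that removes Wnt receptors, had 2 regions inside the gene in 1 run, the stronger (chr11:87709403-87710922) at 95.5 and 95.2 in SISC and 96.1 and 95.4 in LISC. The region nearest to Zbtb38 stood at 97.5 and 97.6 in SISC and 96.3 and 96.5 in LISC. Lrig1 had 1 region and Axin2 the 1 over its own start. By fold enrichment 3 of the 25 genes had a region, and at percentile 95, 2.

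Intestinal identity factors had regions at 4 of 18 genes, with 6 of 158 distal regions (3.80%). Hnf4a, a nuclear receptor of gut epithelium, had 2, the stronger 6.89 kb from the gene end (chr2:163579797-163580978) at 97.5 and 95.9 in SISC and 96.6 and 95.6 in LISC. Cdx1, a caudal homeobox factor, and Prdm1 had 1 each. Genes of the EGF receptor pathway had regions at 5 of 19 genes (6 of 106 distal regions, 5.66%), among them a region inside Egfr at 93.2 and 94.2 in SISC and 94.0 and 92.8 in LISC and 1 nearest to its ligand gene Ereg at 91.5 and 95.3 in SISC and 92.5 and 91.4 in LISC. By fold enrichment the counts of genes were 2 of 18 and 5 of 19, and at percentile 95 they were 1 and 0.

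Cell cycle genes had 48 distal regions for 25 genes, of which 4 (8.33%) were among the strongest. Besides that near Mki67, the region 11.7 kb from Ccne1, the cyclin E1 gene (chr7:38084669-38086267), stood at 99.9 and 99.5 in SISC and 99.9 and 99.9 in LISC. The region inside Ccnd3, the cyclin D3 gene, stood at 99.4 and 99.3 in SISC and 99.4 and 98.1 in LISC. By fold enrichment 4 of the 25 cell cycle genes had a region, and at percentile 95, 3. The remaining lists had 1 to 3 genes with a region each, including Hes1 and Rbpj for Notch, Klf6, Ovol1 and Zeb1 for epithelial factors, Nr1h4 (the bile acid receptor) and Rarg for nuclear receptors, Clca1 for the secretory and Scnn1a for the absorptive list. By fold enrichment 5 of the 16 epithelial factors, 4 of the 26 absorptive genes, 3 of the 23 Notch and BMP genes, 2 of the 21 secretory genes and 1 of the 25 nuclear receptor genes had a region. None of the immune (0 of 18), stromal, endothelial, muscle and glial (0 of 20) or brain neuron genes (0 of 15) had a region. These lists had 23, 54 and 44 distal regions called in all 4 libraries. Over all such regions 3.68% were among the strongest, so no absence is read from counts this small. By fold enrichment 1, 3 and 2 of these genes had a region, and with the minimum at percentile 80, 1, 5 and 3.

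**Figure D5:**
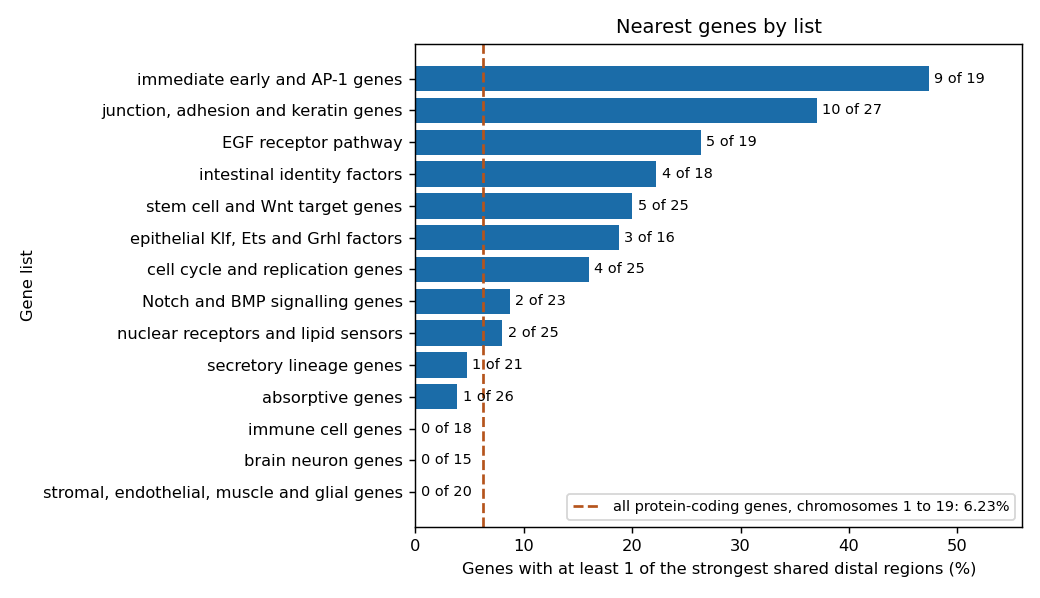
Percent of the genes of each list that had at least 1 of the strongest shared distal regions nearest to them, with the counts beside the bars; the dashed line is the share over all protein-coding genes on chromosomes 1 to 19 (6.23%). The immediate early list stands highest (9 of 19) and 3 lists of other cell types are at 0, but the immediate early count is 4 when regions are ranked by fold enrichment, where 3 lists have a higher share and the lists of other cell types hold 1 to 3 genes.

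The number of distal regions called in all 4 libraries per gene had a median of 1 over all genes and of 0 to 9 by list. Among genes with at least 1 distal region called in all 4 libraries, 11.5% had 1 of the strongest. Of regions with no listed start alone, 869 genes (4.21%) had at least 1.

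MicroRNA genes, whose short products repress messenger RNAs through the seed (bases 2 to 8), lay within 6 of the 1419 regions (0.423%), against 35 of 37156 weaker distal regions (0.0942%) and 34 of 5169 strong regions at gene ends (0.658%). The 1419 regions were also wider than weaker distal ones, and the part of width in these shares was not tested. The strongest of the 6 was chr7:141221304-141222569, 2.65 kb from Rassf7, over miR-210, a microRNA known for its induction by low oxygen. It had a −log10 q of 587 and 455 in SISC and 643 and 293 in LISC. Another, chr12:112129931-112131553, 2.36 kb from Aspg, held miR-203, known in mouse epidermis for its part in differentiation, and had 301 and 278 in SISC and 335 and 167 in LISC. The mature sequences of both, from RefSeq, are given with the seed in capitals, since these are the known products of 2 regions that have no listed start in this table.
mmu-miR-210-3p (minus strand): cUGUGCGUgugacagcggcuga
mmu-miR-210-5p (minus strand): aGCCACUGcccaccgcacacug
mmu-miR-203-3p (plus strand): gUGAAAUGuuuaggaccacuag
mmu-miR-203-5p (plus strand): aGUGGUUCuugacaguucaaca
The mature miR-210-3p lay 500 bp and the mature miR-203-3p 692 bp from the mean summit of its region. The other regions held Mir7240, Mir6349, Mir3105 and Mir7028, with the mature miR-6349 at 14 bp, miR-3105-5p at 86 bp, miR-7028-5p at 281 bp and miR-7240-5p at 945 bp from the mean summit, and the miR-203 region also held Gm51289, the gene of miR-203b on the opposite strand. The 4 sequences share no seed.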

How the data were processed

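ATAC-seq peaks of 2 SISC and 2 LISC libraries were used as deposited, 1 narrowPeak list per library. The submitters' processing notes name mm10, MACS2 2.2.7.1, Bowtie2 2.3.4.1, cutadapt 3.4, bedtools and Picard; calling thresholds, Tn5 shifting and duplicate removal are not given in these sources. Every peak has a fold enrichment (a ratio), a −log10 p, a −log10 q and a score as deposited by the authors. Save for 95 to 149 peaks of a list, the deposited score equals the −log10 q multiplied by 10 and truncated. All 4 columns vary with library depth, so libraries were compared as percentiles within a list.

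Merging by at least 1 bp was checked against bedtools 2.31.1 (119965 regions by both), and the functions were tested on simulated data. Genes, listed starts and sequences came from RefSeq tables of GRCm38.p6; 79.9% of protein-coding genes had a listed start, and starts on chromosome 18 were not used here, which leaves 43 regions out of every share with a start. Motifs planned around summits were read in windows upstream of starts, because no genome sequence was used here. The members and lists were chosen with earlier results of these data known. Named were the 12 strongest regions, the 5 furthest to each tissue, 3 each side of the minimum, the longest runs, the 10 genes with most regions and up to 4 genes per list; other list genes and the microRNAs were named after their values were seen, and some items under this rule are not reported here. Intervals are exact (Clopper-Pearson) at 95% over regions. Alternatives were percentile 80 or 95, ranking by fold enrichment, other merging and distance rules, and each library left out. Calculations ran in pandas 2.3.3, scipy 1.17.1 and numpy 2.4.6 under Python 3.11.15, and plots in matplotlib 3.10.9.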

Additional observations from a re-analysis of the deposited data

Results flagged for a closer look

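On chromosome X, which the choice of regions leaves out, 13 regions called in all 4 libraries reached the same percentile and lay at the same distance from a gene end. They lie outside the data described above, and no value of theirs was compared between the tissues.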

How the results depend on the processing

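No paired analysis was possible because no result comes from a test. With the minimum at percentile 80 there were 4678 regions and 3475 genes, 58.5% in a gene body, a median distance of 12.6 kb, a summit spread of 26 bp, 1002 regions above in both SISC and 1114 in both LISC libraries, and 19.6% with a listed start; at percentile 95 these were 424 and 412, 65.1%, 8.06 kb, a spread of 22 bp, 76 and 87, and 48.3%. Ranked by fold enrichment, 51.4% were in a gene body, the median distance was 14.7 kb, 421 were above in SISC and 16.9% held a start. The start share was 30.3% with merged summit windows, 29.2% at 2.5 kb or more from a gene end (59.6% in a body, 13.5 kb) and 36.9% with distance from the mean summit (9.55 kb); at most 50 kb away the median distance was 9.33 kb. Leaving out 1 library at a time, the spread was 11 to 14.5 bp, where fewer summits enter, and 417 to 635 regions were above in SISC and 493 to 630 in LISC, where a lone library stands for a group. Shares reached in the library left out at percentile 95 were 92.2% (SISC replicate 1), 92.1% (SISC replicate 2), 94.4% (LISC replicate 1) and 87.3% (LISC replicate 2). A count was taken to have moved when it changed by over 1.5 times, and a share or median when it left its 95% interval over regions. In all, 40 of these values moved and 63 did not; of the counts for single gene lists 39 moved and 143 did not. The start share, the tissue counts outside the ranking by fold, all alternatives of the counts for single gene lists and the windows upstream of starts were alternatives chosen after seeing the data, and motifs around summits were not run. No read counts were used, so depth limits these results to an unknown degree; with 2 libraries per group no difference between tissues was tested.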
